A study of Mus musculus with 12 samples.

Results

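The cholesterol gene set held 27 genes of sterol synthesis, its regulation, and sterol transfer and efflux, taken by symbol from a list. The list was chosen with earlier results of these data known. All 27 genes were found among the 52636 gene identifiers of the count table. They comprised 20 enzymes, 4 genes of sterol sensing by SREBP2 and 3 genes of sterol transport. Bulk RNA was sequenced from dissociated tumor and dissociated liver of female FVB/NJ mice carrying a Fo5 tumor, a mammary tumor of the MMTV-HER2 transgenic founder line 5, implanted as a piece in the mammary fat pad of wild-type hosts. In that line the HER2 transgene is driven by the mouse mammary tumor virus promoter, and the hosts kept their own T cells. TDB mice received 1 intravenous dose of 5 mg/kg of the anti-HER2(4D5-2C11)/CD3 antibody, a T cell-dependent bispecific (TDB) whose arms bind tumor HER2 and T cell CD3, and vehicle mice received the same volume of histidine acetate, sucrose and Tween-20 buffer. Organs were taken 24 h later, so that the 4 groups were TDB tumor, vehicle tumor, TDB liver and vehicle liver, with 3 libraries each. The study's design text names 3 mice per treatment for both tissues, so that p-values measure the spread between mice. Total gene counts were 20796764 to 29396324 per tumor library and 18460159 to 25542980 per liver library.

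Cholesterol is built from acetyl-CoA in consecutive stretches: the mevalonate steps make isoprenoid diphosphates, squalene is then formed and closed into lanosterol, and lanosterol is trimmed, reduced and rearranged to cholesterol. The transcription factor SREBP2 drives most genes of this route, and SCAP carries it from the endoplasmic reticulum to the Golgi for activation when membrane sterol is low, while INSIG proteins hold SCAP back when sterol is high. Oxysterols act in the opposite arm: they bind INSIG and they activate the liver X receptors (LXR), which raise the efflux pumps ABCA1 and ABCG1. The liver is a main site of cholesterol synthesis, and rapidly dividing cells need sterol for membranes.

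Promoters of the set shared short letter strings. RefSeq promoter windows on GRCm38.p6, from 250 bases before to 50 bases after a gene's start, were matched for 22 of the 27 genes (28 windows), and not for Abcg1, Fdft1, Fdps, Sqle and Stard4. CCAAT, the letters bound by NF-Y, which works beside SREBP2 at many sterol genes, stood on either strand in 19 of the 22 genes (86.4%), against 41.1% of 27025 genes with windows of the same length. GGGCGG, a GC box, stood in 20 of 22 (90.9%), against 38.2%. The sterol-response-type letters TCACNCCAC stood in 1 gene, Hmgcs1 (4.55%, against 1.44% of all genes), and began 137 bases before its start. None of the matched windows held 2 copies of AGGTCA in the same direction with 4 bases between them, a layout that LXR binds, which 0.0148% of all genes held. A match is a run of letters, not a shown site. The 27025 genes were not limited to genes tested in tumor or liver, and no comparison with expressed genes alone was made.

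The 250 bases before the start are shown for 6 genes that the results turn on, 5′ to 3′ along the gene, with complete matches of these strings in capitals. They are the regulators Insig1 and Srebf2, the mevalonate enzymes Hmgcs1 (the gene with the sterol-response-type match) and Acat2, and the lanosterol-stage enzymes Cyp51 and Tm7sf2. In GRCm38.p6 coordinates these are Insig1 at chr5:28071162-28071411 on the plus strand, Srebf2 at chr15:82147019-82147268 on the plus strand, Hmgcs1 at chr13:119690101-119690350 on the plus strand, Acat2 at chr17:12960726-12960975 on the minus strand, Cyp51 at chr5:4104698-4104947 on the minus strand and Tm7sf2 at chr19:6067851-6068100 on the minus strand. Insig1, Hmgcs1, Srebf2, Cyp51 and Tm7sf2 each held CCAAT or its complement in these bases, and Acat2 held 1 GC box and no CCAAT.
Insig1: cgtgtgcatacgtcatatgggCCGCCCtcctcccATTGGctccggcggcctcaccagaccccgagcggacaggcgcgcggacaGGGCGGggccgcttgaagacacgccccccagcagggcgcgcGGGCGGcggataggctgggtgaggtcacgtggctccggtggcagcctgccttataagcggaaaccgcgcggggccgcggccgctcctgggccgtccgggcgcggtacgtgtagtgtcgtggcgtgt
Srebf2: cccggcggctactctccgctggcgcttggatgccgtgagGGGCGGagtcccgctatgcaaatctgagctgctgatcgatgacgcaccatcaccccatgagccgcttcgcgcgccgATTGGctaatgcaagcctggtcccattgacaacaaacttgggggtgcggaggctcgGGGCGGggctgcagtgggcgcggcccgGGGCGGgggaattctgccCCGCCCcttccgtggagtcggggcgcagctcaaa
Hmgcs1: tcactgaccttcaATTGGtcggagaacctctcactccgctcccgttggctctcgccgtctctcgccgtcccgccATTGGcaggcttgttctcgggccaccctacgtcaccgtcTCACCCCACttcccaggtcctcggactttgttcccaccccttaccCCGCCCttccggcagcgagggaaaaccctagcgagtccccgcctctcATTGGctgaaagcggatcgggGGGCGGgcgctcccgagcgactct
Acat2: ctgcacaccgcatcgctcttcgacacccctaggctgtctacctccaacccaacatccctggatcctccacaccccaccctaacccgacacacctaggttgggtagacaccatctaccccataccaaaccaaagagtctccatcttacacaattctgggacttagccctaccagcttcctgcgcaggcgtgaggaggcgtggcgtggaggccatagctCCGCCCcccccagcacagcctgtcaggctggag
Cyp51: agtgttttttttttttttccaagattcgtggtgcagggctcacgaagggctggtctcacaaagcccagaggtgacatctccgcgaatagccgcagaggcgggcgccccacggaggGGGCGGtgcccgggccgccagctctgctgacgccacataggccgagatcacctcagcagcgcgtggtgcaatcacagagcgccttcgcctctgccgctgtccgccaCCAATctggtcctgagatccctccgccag
Tm7sf2: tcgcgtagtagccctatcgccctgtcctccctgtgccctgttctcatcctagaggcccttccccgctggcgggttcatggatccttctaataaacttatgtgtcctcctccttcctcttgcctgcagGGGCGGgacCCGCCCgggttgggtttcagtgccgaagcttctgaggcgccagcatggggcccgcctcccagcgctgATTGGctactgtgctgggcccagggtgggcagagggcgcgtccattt

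In tumor, 11 of the 27 genes fell with TDB and 1, the efflux pump gene Abcg1, rose. Of all 15454 genes tested in tumor, 13.1% fell and 15.8% rose at the same threshold (edgeR quasi-likelihood test, Benjamini-Hochberg adjusted p under 0.05). Since the members were chosen with earlier results of these data known, contrasts with all genes here are a description, not an independent test. The genes that fell were spread over the route: Acat2, Pmvk and Mvd of the mevalonate steps, Cyp51, Tm7sf2, Lbr and Nsdhl of the lanosterol stage, Srebf2, Scap and Insig1 of SREBP2 regulation, and the sterol carrier Stard4. None of the 3 enzymes between farnesyl diphosphate and lanosterol passed the test. Among genes with a mean of 10 CPM or more, which held 24 of the members and all 12 that passed, 15.5% fell and 16.6% rose. Scaling by upper quartiles in place of TMM changed the share of rises among all calls to 41.0%, against 54.7%, and gave 13 of the 27 genes lower and 1 higher. An unadjusted p under 0.05 was found in 15 of the 27 genes, against 40.6% of all genes. The median log2 fold change over the 27 genes was -0.24, against -0.02 over all genes tested, and 21 of the 27 lay below 0, against 52.2% of all genes. In 12 genes each TDB tumor lay below each vehicle tumor (23.1% of all genes tested), and in 3 (Ebp, Abca1 and Abcg1) each TDB tumor lay above each vehicle tumor (23% of all genes).

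The 20 enzymes together took 1235, 1150.1 and 1242 CPM (counts scaled to library size within a tissue) in TDB tumors, against 1442, 1509.8 and 1251 CPM in vehicle tumors. Vehicle tumor 3 lay only just above the TDB tumors, and the groups did not overlap. Values per library follow the label numbers 1, 2 and 3, which do not rank the mice. In bulk RNA, fewer cells of a type and less RNA per cell cannot be told apart. Markers of other cells and of division differed between the same tumors. Of 12 proliferation genes, 10 fell, with a summed level of 457 to 739.7 CPM in TDB tumors against 1057 to 1257 CPM in vehicle tumors. Of 10 T cell markers, 9 rose (17.4 to 29.2 against 2.800 to 5.68 CPM, with Cd3e at 0 in each vehicle tumor), and of 11 monocyte and macrophage markers, 7 rose (1781 to 2082 against 549 to 737 CPM). Epithelial markers of the tumor summed to 25412 to 26388 CPM in TDB tumors against 21419 to 25149.5 CPM in vehicle tumors. Of 10 tested, 1 (Krt8) was lower, and Krt19 was at 0 in vehicle tumor 1. The sum of these markers of the labelled tissue, though not each marker, was high in all 6 libraries. Hepatocyte markers summed to 1.61 to 7.92 CPM in TDB tumors and 0.353 to 41.3 CPM in vehicle tumors. The 6 adipocyte markers were at 0 in each vehicle tumor and summed to at most 0.0717 CPM in a TDB tumor. The part of these shifts in the sterol genes' fall was not tested. All 10 interferon-gamma response genes rose in both tissues.

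Of the 8 mevalonate genes, 3 fell in TDB tumors. Acat2, which joins acetyl-CoA units into acetoacetyl-CoA, had 26.5, 24.6 and 28.8 CPM in TDB tumors, against 51.8, 49.1 and 38.95 CPM in vehicle tumors. The groups did not overlap, and Acat2 fell by 42.8% (log2 fold change -0.81, SE 0.12, adjusted p = 0.00111). Hmgcs1, the HMG-CoA synthase, had 111, 115 and 114 CPM in TDB tumors, against 123, 143 and 127 CPM in vehicle tumors. All 3 TDB tumors lay below the lowest vehicle tumor, yet the change of -0.21 on the log2 scale missed the threshold (adjusted p = 0.0632); it passed in 4 of 15 alternatives, at adjusted p = 0.0473 without vehicle tumor 1 and 0.019 with upper quartile scaling, 0.0443 on log2 of the deposited FPKM (a length-scaled level) plus 1 and 0.042 on FPKM plus 0.1. Pmvk, which adds the second phosphate to mevalonate, had 47.6, 40.4 and 41.7 CPM in TDB tumors, against 75.9, 73.6 and 61.01 CPM in vehicle tumors. It fell by 38.4% with no overlap (log2 fold change -0.70, SE 0.10, adjusted p = 0.00123). Mvd, which decarboxylates the product to isopentenyl diphosphate, had 41.2, 38.8 and 41.1 CPM in TDB tumors, against 57.98, 59.7 and 42.9 CPM in vehicle tumors. The lowest vehicle tumor lay close to the TDB range. Mvd passed the test (log2 fold change -0.41, SE 0.12, adjusted p = 0.035), but not without any one of 5 libraries, where its adjusted p was 0.124 (vehicle tumor 1 left out), 0.104 (vehicle tumor 2), 0.0851 (TDB tumor 1), 0.117 (TDB tumor 2) and 0.0795 (TDB tumor 3). It also missed the threshold at 0.339 in a single fit over the 12 tumor and liver libraries and 0.0558 on FPKM plus 1.

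The other mevalonate genes did not pass the test in tumor. Mvk, the mevalonate kinase, averaged 16.4 ± 2.31 CPM in TDB tumors and 19.7 ± 2.58 CPM in vehicle tumors (SD, n = 3 each, adjusted p = 0.181). Ggps1, which makes geranylgeranyl diphosphate for protein prenylation outside the sterol route, averaged 23.3 ± 1.68 CPM in TDB tumors and 21.02 ± 0.634 CPM in vehicle tumors (adjusted p = 0.248). Idi1, the isopentenyl diphosphate isomerase, and Fdps, the farnesyl diphosphate synthase, were counted at low levels. Idi1 averaged 2.06 ± 0.402 CPM in TDB tumors and 2.39 ± 0.2896 CPM in vehicle tumors (adjusted p = 0.516). Fdps had 1.08, 1.18 and 2.198 CPM in TDB tumors, against 1.92, 2.75 and 1.72 CPM in vehicle tumors. TDB tumor 3 lay within the vehicle range and the other TDB tumors below it (adjusted p = 0.268). Both genes have processed pseudogenes nearly identical to them over 605 to 1066 bases, and for Fdps the copies held more of the counts than the gene did. With the counts of 4 such copies added, Fdps averaged 8.68 ± 0.6900 CPM in TDB tumors and 10.8 ± 1.49 CPM in vehicle tumors (log2 fold change -0.32, adjusted p = 0.127), an alternative added after the data were seen. Levels of Fdps and Idi1 are therefore uncertain here. Acat2 shares sequence with Acat3 (97.7% identical over 1477 bases), which held 64 counts over the 6 tumor libraries, and Acat2 with Acat3 added gave log2 fold change -0.79, adjusted p = 0.00107. Acat2 also matches Tcp1 over a shorter stretch (98.7% identical over 445 bases). Tcp1 held 45286 counts over the 6 tumor libraries and 17958 over the 6 livers, and was not added to Acat2, since copies were added from 600 aligned bases on; the level of Acat2 is uncertain to that extent.

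Between farnesyl diphosphate and lanosterol, the 3 enzymes overlapped between groups. Fdft1, the squalene synthase, averaged 9.404 ± 0.594 CPM in TDB tumors and 9.47 ± 0.666 CPM in vehicle tumors (log2 fold change -0.01, SE 0.12, adjusted p = 0.957). Of its exon bases, 18.3% overlap Ctsb, a protein-coding gene on the opposite strand. Ctsb held 170147 counts over the tumor libraries and 132069 over the livers. The strand setting of the counts is not known, so the level of Fdft1 is uncertain to that extent. Sqle, the squalene epoxidase, averaged 178 ± 6.34 CPM in TDB tumors and 195 ± 22.7 CPM in vehicle tumors (log2 fold change -0.13, SE 0.091, adjusted p = 0.317). Lss, the lanosterol synthase, averaged 93.2 ± 4.93 CPM in TDB tumors and 103 ± 11.5 CPM in vehicle tumors (log2 fold change -0.14, SE 0.090, adjusted p = 0.274). Of the alternatives run, Sqle passed the threshold in 1, with vehicle tumor 3 left out (log2 fold change -0.22, adjusted p = 0.042).

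At the lanosterol stage, 4 of 9 genes fell, among them those of its first reactions. Cyp51, which removes the 14-methyl group of lanosterol, had 97.5, 89.4 and 108 CPM in TDB tumors, against 139, 150.0 and 118 CPM in vehicle tumors. Each TDB tumor lay below each vehicle tumor (log2 fold change -0.46, SE 0.11, adjusted p = 0.0111). The next reaction, reduction of the C14 double bond, can be carried out by 2 proteins, TM7SF2 and LBR, of which LBR is also a lamin-binding protein of the inner nuclear membrane. Tm7sf2 had 8.77, 7.64 and 10.9 CPM in TDB tumors, against 19.4, 19.6 and 16.5 CPM in vehicle tumors. It fell by 50.95%, the largest fold change among the 27 genes in tumor (log2 fold change -1.03, SE 0.15, adjusted p = 0.00108), with no overlap between groups; 12.1% of its exon bases overlap Vps51 on the same strand. Lbr had 39.7, 37.2 and 44.7 CPM in TDB tumors, against 56.1, 60.7 and 54.3 CPM in vehicle tumors. It too was lower in each TDB tumor (log2 fold change -0.49, SE 0.089, adjusted p = 0.00338). Nsdhl and Msmo1 take part in removing the methyl groups at C4. Nsdhl had 75.7, 70.3 and 72.7 CPM in TDB tumors, against 98.5, 102 and 77.7 CPM in vehicle tumors. The vehicle libraries spread more widely than the TDB libraries, with vehicle tumor 3 nearest to them. The Nsdhl call (log2 fold change -0.35, SE 0.10, adjusted p = 0.0342) was lost without any one of 5 libraries, at adjusted p = 0.115 (vehicle tumor 1 left out), 0.106 (vehicle tumor 2), 0.072 (TDB tumor 1), 0.118 (TDB tumor 2) and 0.0889 (TDB tumor 3), and at 0.37 in the 12-library fit, 0.0598 on FPKM plus 1 and 0.052 on FPKM plus 0.1. Msmo1, the C4 methyl oxidase, averaged 50.7 ± 2.21 CPM in TDB tumors and 62.1 ± 10.5 CPM in vehicle tumors (adjusted p = 0.0996). It passed the threshold without vehicle tumor 3 (adjusted p = 0.00342) and with upper quartile scaling (adjusted p = 0.0462).

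The remaining lanosterol-stage genes did not pass the test. Hsd17b7, a ketoreductase of the same C4 demethylation, averaged 36.4 ± 2.16 CPM in TDB tumors and 33.7 ± 4.13 CPM in vehicle tumors (adjusted p = 0.457). Ebp, the sterol isomerase, had 83.3, 82.2 and 78.8 CPM in TDB tumors, against 78.5, 71.99 and 65.2 CPM in vehicle tumors. Every TDB tumor was above every vehicle tumor by a narrow margin, and the change did not pass the test (log2 fold change 0.18, adjusted p = 0.132). Sc5d, the desaturase at C5, averaged 54.8 ± 2.996 CPM in TDB tumors and 54.7 ± 3.81 CPM in vehicle tumors (adjusted p = 0.984). Dhcr7, the reductase that turns 7-dehydrocholesterol into cholesterol, averaged 217 ± 20.02 CPM in TDB tumors and 220.4 ± 23.8 CPM in vehicle tumors (adjusted p = 0.89).

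Of the 4 genes of SREBP2 regulation, 3 fell. Srebf2, which encodes SREBP2, had 175, 162 and 168 CPM in TDB tumors, against 199, 204 and 194 CPM in vehicle tumors. Scap, its escort, had 137, 133 and 134 CPM in TDB tumors, against 169, 156 and 152 CPM in vehicle tumors. Each of these fell by 15.3% without overlap of the groups (Srebf2 SE 0.065, adjusted p = 0.0225; Scap SE 0.067, adjusted p = 0.025), and both calls were lost in single leave-outs. For Srebf2 the adjusted p was 0.0622 without vehicle tumor 2, 0.111 without TDB tumor 2 and 0.0726 without TDB tumor 3. For Scap it was 0.0629 without vehicle tumor 1, 0.0671 without TDB tumor 1, 0.1 without TDB tumor 2 and 0.0785 without TDB tumor 3. Insig1, a retention factor that is itself an SREBP target, had 20.9, 18.97 and 22.1 CPM in TDB tumors, against 30.4, 31.4 and 28.8 CPM in vehicle tumors. It fell by 31.6% (log2 fold change -0.55, SE 0.090, adjusted p = 0.00214). Its paralog Insig2 averaged 74.96 ± 5.08 CPM in TDB tumors and 79.8 ± 7.93 CPM in vehicle tumors and overlapped (adjusted p = 0.488).

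Of the 3 transport genes, 1 fell and 1 rose. Stard4, a soluble carrier that moves sterol between membranes and is an SREBP2 target, had 48.98, 42.6 and 54.96 CPM in TDB tumors, against 73.4, 73.9 and 72.2 CPM in vehicle tumors. The vehicle tumors were nearly equal, and each TDB tumor lay below them (log2 fold change -0.58, SE 0.095, adjusted p = 0.00202). Abcg1, which exports cholesterol to lipoprotein particles, had 39.1, 44.6 and 49.98 CPM in TDB tumors, against 24.96, 21.1 and 27.9 CPM in vehicle tumors. It was higher in each TDB tumor (log2 fold change 0.85, SE 0.12, adjusted p = 0.0012). Abca1, the pump that loads lipid-poor apolipoprotein A-I, had 86.9, 113 and 129 CPM in TDB tumors, against 65.7, 53.4 and 86.7 CPM in vehicle tumors. TDB tumor 1 and vehicle tumor 3 nearly touched, and Abca1 did not pass the test (log2 fold change 0.67, SE 0.21, adjusted p = 0.0574). It passed without TDB tumor 1 (adjusted p = 0.0333) and without vehicle tumor 3 (adjusted p = 0.0139), under DESeq2 (adjusted p = 0.00152) and limma-voom (adjusted p = 0.0275), and with the replicate number as a block (adjusted p = 0.0132). Both pumps are expressed in macrophages, whose markers were higher in the same TDB tumors; the part of those cells in the 2 genes was not tested.

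**Figure D1:**
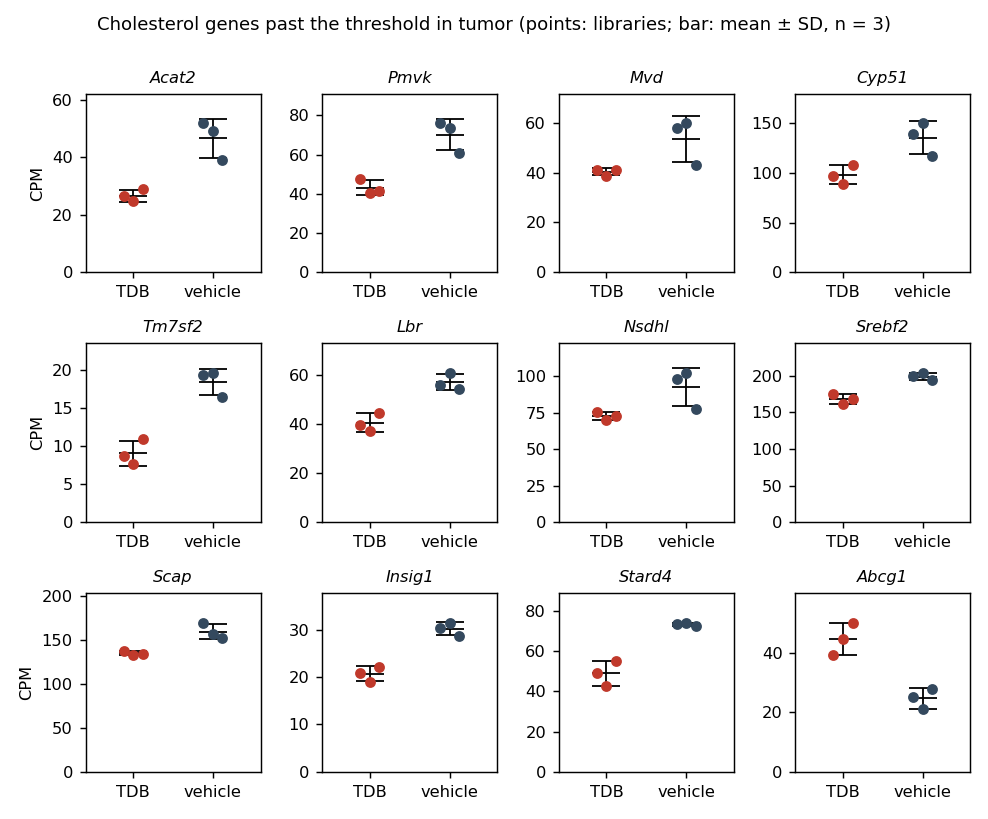
Level in CPM (vertical axes, from 0) of the 12 cholesterol genes past the threshold in tumor, in TDB and vehicle libraries. Points are the 3 libraries of a group and bars the mean ± SD; in each gene the groups do not overlap, with Abcg1 higher and the other 11 lower in TDB tumors.

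A fit that pools liver and tumor libraries, which shares one estimate of spread over both tissues, kept 4 of the 11 calls and not Abcg1. These 4 (Acat2, Tm7sf2, Lbr and Insig1) passed in every alternative run, each leave-out included. Leaving out 1 tumor library gave 7 to 13 lower calls, with 7 without TDB tumor 2 and 7 without TDB tumor 3.

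In liver, no cholesterol gene passed the test, and few genes did at all. Of 13657 genes tested, 0.022% fell and 0.513% rose (edgeR). Neither DESeq2 nor limma-voom called a member, and 2 of 27, Scap and Abcg1, had an unadjusted p under 0.05, against 8.09% of all genes. The median log2 fold change over the 27 genes was -0.27 (0.04 over all genes) and 21 of 27 lay below 0 (45.8% of all genes), the same counts below 0 as in tumor but with a wider spread between mice. Scap was the single member lower in each TDB liver (5.46% of all genes were), and Abcg1 the single one higher in each (9.11%). Scap had 101, 92.7 and 107 CPM in TDB livers, against 154, 117 and 173 CPM in vehicle livers. The groups were apart by less than the vehicle range (log2 fold change -0.56, SE 0.21, adjusted p = 0.489). Abcg1 had 7.32, 10.7 and 12.8 CPM in TDB livers, against 6.83, 3.47 and 6.56 CPM in vehicle livers. It had the sign it had in tumor (log2 fold change 0.87, SE 0.35, adjusted p = 0.564).

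A single vehicle liver stood apart for the synthesis enzymes. Vehicle liver 2 had the highest level of the 6 livers for 17 of the 20 enzymes, while TDB liver 1 was lowest for 9 and TDB liver 3 for another 9. The 20 enzymes summed to 2189, 2933 and 2570.2 CPM in TDB livers, against 2634, 4132 and 2991 CPM in vehicle livers. Vehicle liver 2 was far above the others and the groups overlapped. Without it the median over the 27 genes was -0.085, and without TDB liver 1 it was -0.19. Over all leave-outs of 1 liver library, this median ran from -0.38 to -0.085. Hepatocyte markers in the same livers summed to 118556 to 148718 CPM with TDB and 168156 to 197337 CPM with vehicle, with none of 10 past the threshold and 3 at an unadjusted p under 0.05, and T cell markers to 27.1 to 33.9 and 12.3 to 14.4 CPM (1 of 10 higher). Their part in the sterol genes' levels was not tested.

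Mevalonate genes in liver overlapped between groups throughout. Mvd had 57.8, 71.5 and 34.9 CPM in TDB livers, against 63.8, 114 and 85.9 CPM in vehicle livers. TDB livers 1 and 3 lay below the vehicle range and vehicle livers 2 and 3 above the TDB range (adjusted p = 0.688). Mvk averaged 50.3 ± 20.5 CPM in TDB livers and 76.4 ± 24.6 CPM in vehicle livers, and Pmvk 70.5 ± 19.5 CPM in TDB livers and 95.5 ± 43.7 CPM in vehicle livers. Hmgcs1 had 260.3, 554 and 559 CPM in TDB livers, against 417, 634 and 592 CPM in vehicle livers. TDB liver 1 alone was low, and the other 2 TDB livers lay among the vehicle livers. Acat2 averaged 53.3 ± 9.63 CPM in TDB livers and 74.1 ± 23.4 CPM in vehicle livers; Acat3 held 22827 counts over the 6 livers, and with it added the change was a log2 fold change of -0.47, adjusted p = 0.693. Idi1 ranged over 1.41 to 3.92 CPM in TDB livers against 2.53 to 7.28 CPM in vehicle livers, Fdps over 2.95 to 7.07 CPM in TDB livers against 4.63 to 8.34 CPM in vehicle livers and Ggps1 over 5.54 to 6.899 CPM in TDB livers against 6.49 to 6.61 CPM in vehicle livers. Among the squalene enzymes, Fdft1 averaged 32.6 ± 8.06 CPM in TDB livers and 42.3 ± 10.6 CPM in vehicle livers, Sqle 125 ± 32.9 CPM in TDB livers and 115 ± 35.2 CPM in vehicle livers and Lss 70.5 ± 21.98 CPM in TDB livers and 72.3 ± 23.4 CPM in vehicle livers. The log2 fold changes of these 11 genes ran between -0.68 (Mvd) and 0.13 (Sqle).

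Tm7sf2 also had the most negative fold change of the set in liver, without passing the test. It had 192, 183 and 105 CPM in TDB livers, against 247, 347 and 191 CPM in vehicle livers. Vehicle liver 3 lay within the TDB range (log2 fold change -0.71, SE 0.32, adjusted p = 0.642). Msmo1 averaged 261 ± 54.6 CPM in TDB livers and 398 ± 147 CPM in vehicle livers (adjusted p = 0.698), Nsdhl 107 ± 23.1 CPM in TDB livers and 153 ± 59.9 CPM in vehicle livers and Cyp51 247 ± 39.2 CPM in TDB livers and 306 ± 110.0 CPM in vehicle livers. In each of Msmo1, Nsdhl and Cyp51, vehicle liver 2 was the highest library. Lbr had a positive sign, with 12.7, 12.2 and 17.6 CPM in TDB livers, against 11.3, 13.3 and 13.3 CPM in vehicle livers. TDB liver 3 was the high one (adjusted p = 0.875), and without it the log2 fold change was -0.01. Hsd17b7 ranged over 23.5 to 68.4 CPM in TDB livers against 43.5 to 57.5 CPM in vehicle livers, Ebp over 239 to 354 CPM in TDB livers against 310.5 to 388 CPM in vehicle livers, Sc5d over 306 to 413 CPM in TDB livers against 402 to 502 CPM in vehicle livers and Dhcr7 over 90.1 to 158 CPM in TDB livers against 121 to 191 CPM in vehicle livers. Their adjusted p-values lay between 0.807 and 0.903.

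Regulators and transporters in liver did not pass the test. Srebf2 averaged 50.01 ± 16.6 CPM in TDB livers and 47.9 ± 11.5 CPM in vehicle livers, Insig1 268 ± 25.7 CPM in TDB livers and 273 ± 54.5 CPM in vehicle livers and Insig2 383 ± 10.5 CPM in TDB livers and 322 ± 80.97 CPM in vehicle livers (adjusted p = 0.961, 0.975 and 0.824). Stard4 had 77.5, 76.6 and 138 CPM in TDB livers, against 121, 118 and 131 CPM in vehicle livers. TDB livers 1 and 2 were low and TDB liver 3 was the highest of all 6 (adjusted p = 0.811). Abca1 had 40.4, 56.7 and 252 CPM in TDB livers, against 55.4, 54.8 and 69.2 CPM in vehicle livers. The value of TDB liver 3 alone set the positive fold change (log2 0.96, SE 0.64, adjusted p = 0.793), which was -0.29 without that library.

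**Figure D2:**
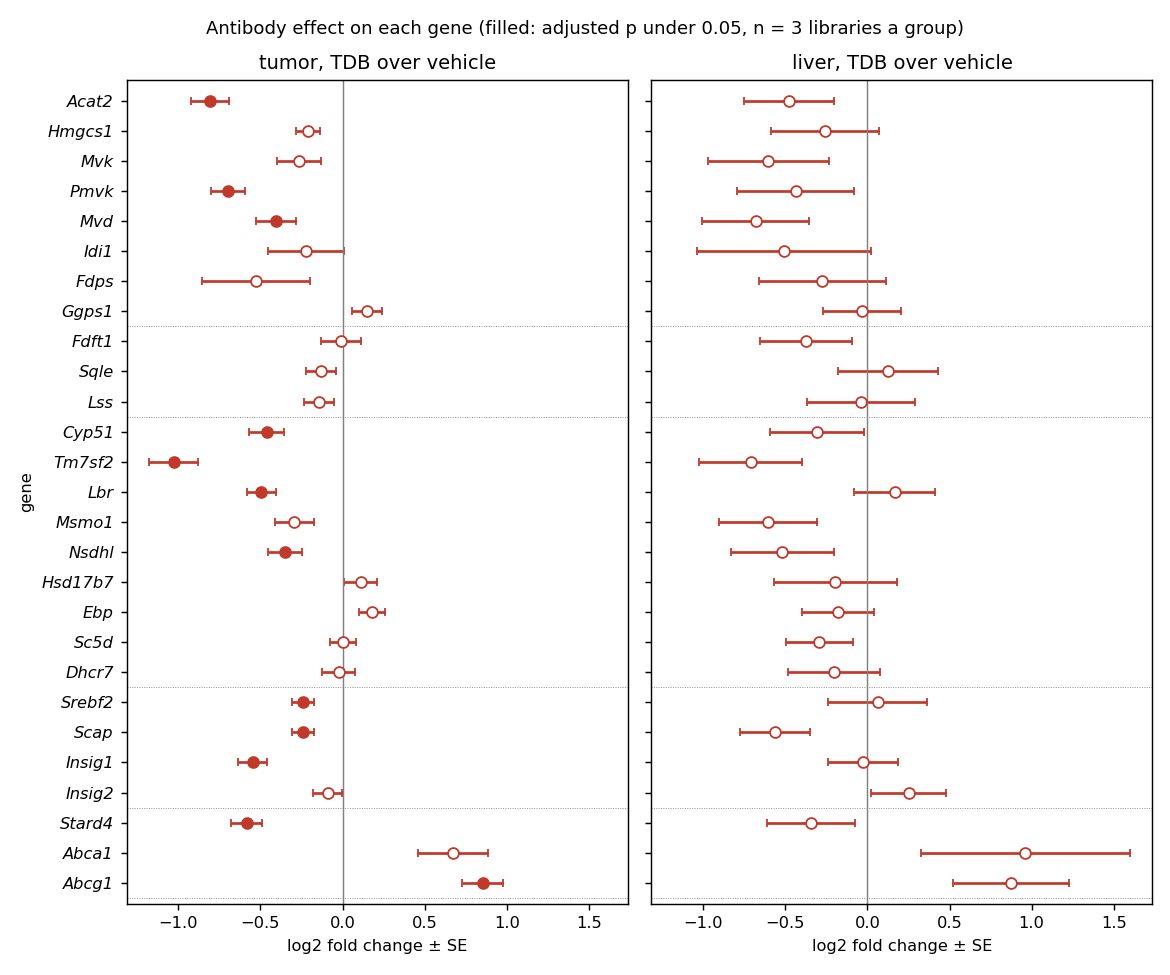
Log2 fold change of TDB over vehicle (horizontal axes, ± SE) of the 27 genes in tumor (left) and liver (right), in order of their step. Filled points passed an adjusted p of 0.05; 12 are filled in tumor and 0 in liver, where the error bars are longer.

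**Figure D3:**
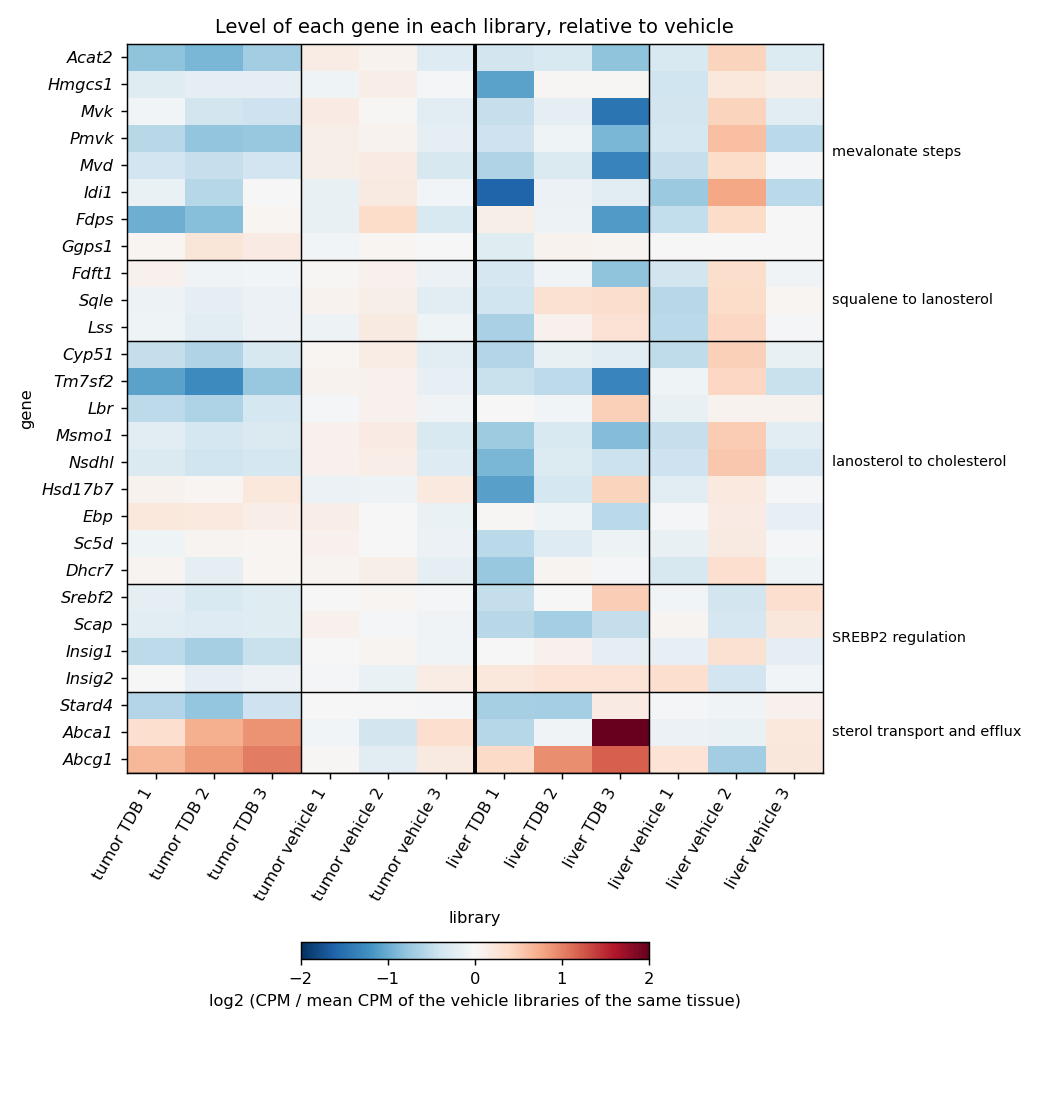
Level of each gene (rows) in each of the 12 libraries (columns), as log2 of CPM over the mean CPM of the vehicle libraries of its tissue, with a colour scale from -2 to 2. Blue rows run through all 3 TDB tumors for Acat2, Pmvk and Tm7sf2, while in liver single columns carry most of the colour. Vehicle liver 2 is high and TDB liver 1 low for many enzymes. TDB liver 3 is low for some genes and high for others, among them Abca1, Abcg1 and Hsd17b7.

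The antibody effect was not shown to differ between tissues for any member. Testing tumor minus liver effects over the 12 libraries called 0 of 27 genes with edgeR, DESeq2 and limma-voom, against 1.83% higher and 0.658% lower of 16557 genes. By edgeR, 2 members had an unadjusted p under 0.05 (12.5% of all genes): Lbr, with a difference of -0.70 (SE 0.24, adjusted p = 0.193), and Insig1, with -0.57 (SE 0.23, adjusted p = 0.324). The median difference over the members was -0.05 on the log2 scale, and over all genes -0.12, which was 0.01 with DESeq2. Both tissues came from the same mice by the design text, and the test treats the libraries as unpaired, since no label ties a number to a mouse.

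Scaled by exon length and by TMM over the 12 libraries together, most cholesterol genes were higher in liver than in tumor under vehicle. The range in vehicle tumors lay below that in vehicle livers for 22 genes and above it for 4 (Ggps1, Lbr, Srebf2 and Abcg1), and the ranges overlapped for Sqle. For some genes the order depends on that scaling. With CPM scaled within each tissue, Dhcr7 had 194 to 238 CPM in vehicle tumors and 121 to 191 CPM in vehicle livers. Mean CPM was also higher in vehicle tumor for Lss (103 against 72.3), Scap (159 against 148) and Abca1 (68.6 against 59.8). The other genes of the 22 kept the higher mean in vehicle liver. In CPM per kilobase of exon, the highest mean levels in vehicle liver were 233 for Ebp, 185 for Hmgcs1 and 144 for Insig2. In vehicle tumor they were 27.5 for Pmvk, 25.5 for Dhcr7 and 23.6 for Sqle. The C14 reductases differed in order between tissues: on this scale Tm7sf2 averaged 2.82 and Lbr 8.04 in vehicle tumor, whereas Tm7sf2 averaged 92.2 and Lbr 4.12 in vehicle liver. Insig1 averaged 4.23 in TDB tumor and 6.56 in vehicle tumor, against 131 in TDB liver and 137 in vehicle liver. These levels are a description with no test, and those of Fdps and Idi1 leave out counts listed under their pseudogenes.

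**Figure D4:**
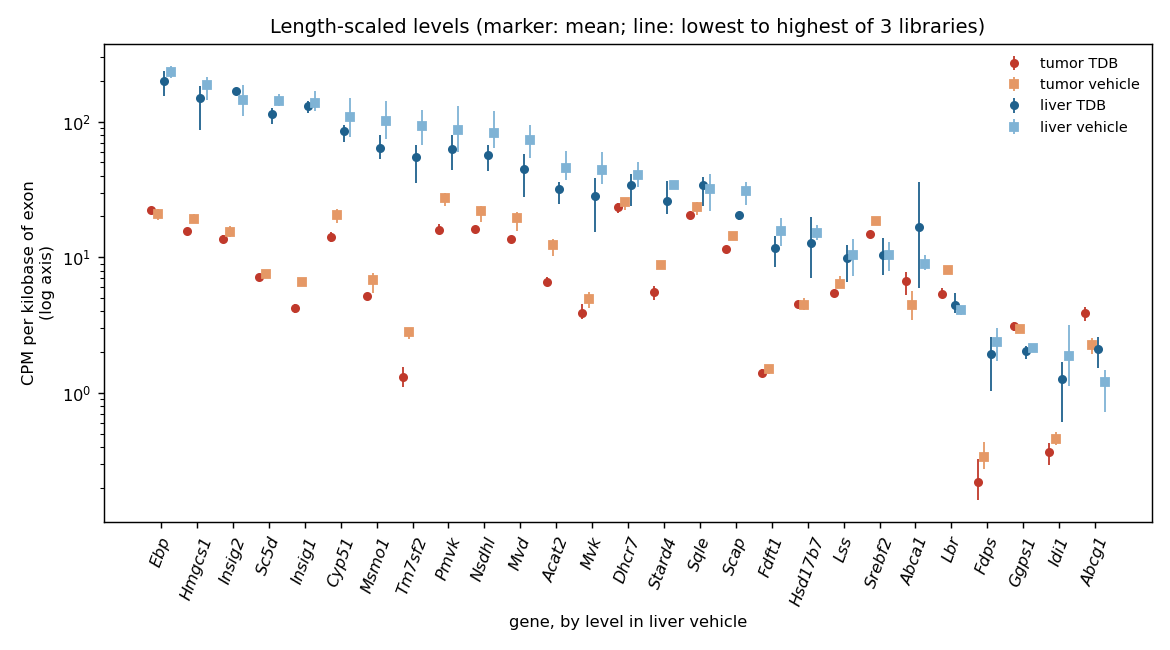
Mean length-scaled level (log axis, CPM per kilobase of exon, TMM over the 12 libraries together) of the 27 genes in TDB and vehicle tumor and in TDB and vehicle liver. Genes are ordered by vehicle liver, with lines from the lowest to the highest of 3 libraries. Liver markers lie above tumor markers for most genes, and Srebf2, Lbr, Ggps1 and Abcg1 run the other way under vehicle.

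Other genes of the sterol pathway, 52 in 6 lists, were measured beside the set. In tumor 48 were tested, of which 10 rose (15.8% of all genes tested did) and 7 fell (13.1% of all genes did). These counts lie near the shares over all genes and are no result about the lists as a whole. In the fit over 12 libraries, Ch25h, Cyp7b1, Cyp39a1, Rnf139 and Scarb1 passed, and the other pathway genes named as having risen or fallen in tumor did not. Among 6 oxysterol and bile acid side chain enzymes, 3 rose and 1 fell. Ch25h, which makes the INSIG ligand and LXR agonist 25-hydroxycholesterol, had 26.4, 38.2 and 30.4 CPM in TDB tumors, against 3.297, 1.63 and 4.72 CPM in vehicle tumors. It was higher in each TDB tumor, by 9.84-fold (log2 fold change 3.30, SE 0.35, adjusted p = 0.000806). Monocyte and macrophage markers and interferon-gamma response genes were higher in the same tumors, and their part in the rise of Ch25h was not tested. Ch25h was too low to test in liver, at 4 counts over the 3 vehicle livers. Cyp7b1, which hydroxylates oxysterols (log2 fold change 1.51, adjusted p = 0.0183), and Hsd3b7, which acts on the same intermediates (1.29, 0.0482), rose, with 21 and 23 counts over the vehicle tumors; Cyp39a1, an oxysterol hydroxylase, fell (-0.71, 0.0116). Cyp7b1 did not pass without TDB tumor 1 (adjusted p = 0.075) or vehicle tumor 1 (0.0567), Hsd3b7 not without vehicle tumor 1 (0.0682), 2 (0.13) or 3 (0.0844) or TDB tumor 2 (0.196) or 3 (0.116), and Cyp39a1 not without vehicle tumor 1 (0.053). Among other settings, the adjusted p of Cyp7b1 was 0.0516 with DESeq2, 0.567 on FPKM plus 1 and 0.36 on FPKM plus 0.1, where its log2 change was 0.0032 on FPKM plus 1 and 0.031 on FPKM plus 0.1. Hsd3b7 passed in 4 of 15 alternatives, and beside those leave-outs its adjusted p was 0.0535 with upper quartile scaling, 0.132 with DESeq2, 0.0597 with limma-voom, 0.227 in the 12-library fit, 0.0566 on FPKM plus 1 and 0.0875 with the replicate number as a block.

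Of 7 LXR and LXR-target genes, 5 were tested in tumor and 3 rose, where 15.8% of all genes tested rose. Nr1h3, which encodes LXR alpha, had 9.29, 6.99 and 5.18 CPM in TDB tumors, against 3.25, 3.75 and 3.49 CPM in vehicle tumors. The groups did not overlap (log2 fold change 1.03, SE 0.22, adjusted p = 0.00858). Nr1h2, LXR beta, rose by 0.60 on the log2 scale (adjusted p = 0.000616), and Mylip, an LXR target whose product degrades lipoprotein receptors, by 0.60 (adjusted p = 0.000715). In the 12-library fit none of these 3 passed (adjusted p = 0.127 for Nr1h3, 0.13 for Nr1h2 and 0.127 for Mylip). The other 2 tested in tumor had lower means with TDB and did not pass the edgeR test. Srebf1 averaged 1009 ± 37.4 CPM in TDB tumors and 1205 ± 104 CPM in vehicle tumors, without overlap (log2 fold change -0.26, adjusted p = 0.07). Lpcat3 overlapped between groups (log2 fold change -0.11, adjusted p = 0.435). In liver none of the 7 passed the test. Nr1h3 is also expressed in macrophages, whose markers were higher in TDB tumors, and their part was not tested.

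Among 9 genes of SREBP cleavage and sterol-sensed degradation, Rnf139, an endoplasmic reticulum ubiquitin ligase that binds INSIG, rose and Erlin1, a membrane scaffold of sterol-sensed degradation, fell (log2 fold change -0.38, adjusted p = 0.0276). Rnf139 had 86.3, 98.8 and 87.5 CPM in TDB tumors, against 50.5, 50.4 and 48.6 CPM in vehicle tumors. It was higher in every TDB tumor (log2 fold change 0.87, SE 0.076, adjusted p = 5.91e-05), while in liver its log2 fold change was -0.19 (adjusted p = 0.836), and the difference between tissues passed the test (1.01, adjusted p = 0.0196). Rnf139 was the single listed pathway gene called for that difference, and this call was lost with some libraries left out. Its adjusted p was 0.0579 without vehicle liver 1 and 0.0589 without TDB liver 2. It was 0.0628 without vehicle tumor 1, 0.0621 without vehicle tumor 2 and 0.0588 without vehicle tumor 3. Without TDB tumor 1 it was 0.0511 and without TDB tumor 2 0.0766. The call was also lost with no low-count filter (adjusted p 0.0738). With tumor and liver libraries of the same treatment and number as a block, the adjusted p was 0.104. In the storage and carrier list, Soat1, which esterifies cholesterol for storage, rose (0.44, adjusted p = 0.00203). Scarb1, the high-density lipoprotein receptor, had 101, 89.8 and 107 CPM in TDB tumors, against 160.4, 142 and 146 CPM in vehicle tumors. It fell in TDB tumors without overlap (log2 fold change -0.59, SE 0.084, adjusted p = 0.001), as did the sterol transfer gene Gramd1b (-0.33, adjusted p = 0.0357), and 7 of the 10 tested genes of that list did not pass. With 1 library left out, the adjusted p of Erlin1 was 0.0874 without vehicle tumor 2, 0.0654 without TDB tumor 2 and 0.0961 without TDB tumor 3, and that of Gramd1b 0.0799 without vehicle tumor 1, 0.106 without vehicle tumor 2, 0.0554 without TDB tumor 1, 0.0862 without TDB tumor 2 and 0.123 without TDB tumor 3. The adjusted p of Gramd1b was also 0.456 in the 12-library fit, 0.0577 on FPKM plus 1 and 0.0683 on FPKM plus 0.1, that of Erlin1 0.129 in the 12-library fit and that of Soat1 0.335 in the 12-library fit.

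In the isoprenoid and prenylation list of 11, Pggt1b and Rabggta, subunits of geranylgeranyl transferases, rose (0.56 and 0.31 log2, adjusted p = 0.00456 and 0.0199). Fnta, the shared subunit of farnesyl and geranylgeranyl transferase, fell (-0.30, adjusted p = 0.0314), as did Pdss2, a subunit of the enzyme for the coenzyme Q side chain (-0.43, adjusted p = 0.0235). Of 7 acetyl-CoA supply and electron donor genes, Aacs, which activates acetoacetate for lipid synthesis, fell (-0.37, adjusted p = 0.0139). Several of these calls were lost in fits with 1 library left out, which hold fewer libraries. The adjusted p of Fnta was 0.103 without vehicle tumor 1, 0.0757 without vehicle tumor 2, 0.0934 without TDB tumor 1, 0.0518 without TDB tumor 2 and 0.11 without TDB tumor 3. That of Pdss2 was 0.0744 without vehicle tumor 1, 0.0662 without vehicle tumor 2, 0.0822 without TDB tumor 2 and 0.0833 without TDB tumor 3. That of Rabggta was 0.0819 without TDB tumor 1 and 0.0692 without TDB tumor 2. That of Aacs was 0.0605 without TDB tumor 2 and 0.0532 without TDB tumor 3. Rabggta also missed the threshold at adjusted p = 0.0518 with upper quartile scaling, 0.516 in the 12-library fit, 0.053 on FPKM plus 1 and 0.0519 on FPKM plus 0.1, and Pggt1b at 0.403 in the 12-library fit. In liver 51 of the 52 were tested with edgeR and none was called, with 1 at an unadjusted p under 0.05. That gene was Aacs, which had 34.2, 41.5 and 36.4 CPM in TDB livers, against 66.5, 58.4 and 58.2 CPM in vehicle livers. The groups did not overlap (adjusted p = 0.268).

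**Figure D5:**
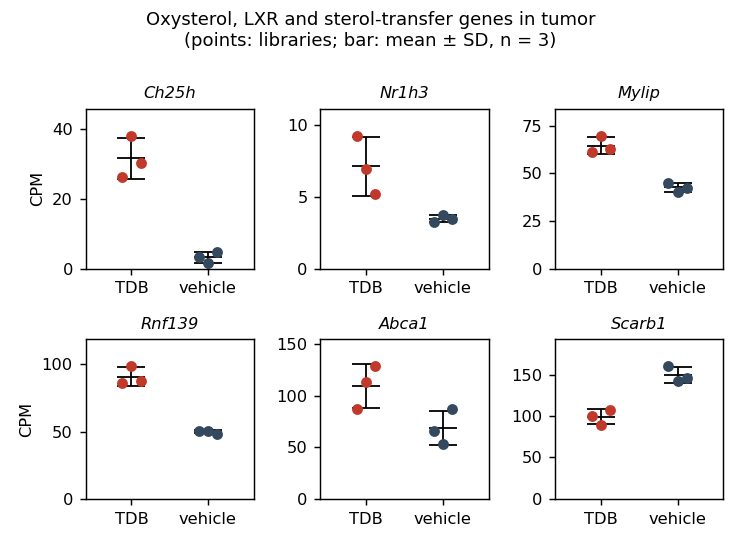
Level in CPM (vertical axes, from 0) of Ch25h, Nr1h3, Mylip, Rnf139, Abca1 and Scarb1 in TDB and vehicle tumors. Points are the 3 libraries of a group and bars the mean ± SD; Scarb1 is lower and the other 5 higher in each TDB tumor, with Abca1 the narrowest gap.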

How the data were processed

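Bulk RNA was measured in 12 libraries. The deposited counts are whole reads per gene, not normalized; the authors used GSNAP, GRCm38 and limma, per the submitters' processing notes, and the sources used here do not give the counter or its strand setting. The authors also deposited FPKM values, used only as an alternative (log2 of the value plus 1 or 0.1, which understates changes of low genes). The test was edgeR 4.0.16 under R 4.3.3, for TDB against vehicle in each tissue, and the tumor minus liver effect over 12 libraries. Genes were filtered by filterByExpr with minimum count 10 and minimum total 15, then scaled by TMM and fitted by robust quasi-likelihood. P-values were adjusted by Benjamini-Hochberg over all genes tested, and a change was called at an adjusted p under 0.05. The procedure was tested on simulated data. DESeq2 1.42.0, limma 3.58.1, other scalings and filters, leave-outs and blocks on the replicate number were alternatives. The block was the number within a tissue, and treatment with number across tissues for the difference. Symbols and exon lengths came from GENCODE M21.

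Every member is named. Other pathway genes are named if called, up to 3 per list and direction by fold change, and Srebf1 and Lpcat3 are named though not called. Members, lists and tests were chosen with earlier results of these data known. Sequences are from RefSeq (GRCm38.p6).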

Additional observations from a re-analysis of the deposited data

Results flagged for a closer look

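Rnf139, the ubiquitin ligase gene that binds INSIG, was flagged because the antibody effect differed between tissues by the test of the difference itself (edgeR interaction, tumor minus liver 1.01 on the log2 scale, SE 0.20, adjusted p = 0.0196). Its log2 fold change with TDB was 0.87 in tumor, where each of 3 TDB libraries exceeded each vehicle library, and -0.19 in liver, where the groups overlapped. The difference passed the test in 11 of 20 alternatives, with adjusted p-values between 5.1e-08 and 0.10 and log2 differences between 0.84 and 1.10. The highest, 0.104, came with tumor and liver libraries of the same treatment and number as a block. The call was also lost with no low-count filter (0.0738) and in 7 leave-outs.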

How the results depend on the processing

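In tumor, 11 lower calls became 4 and the 1 higher call became 0 when tumor and liver shared 1 fit over 12 libraries. Higher calls were 2 with DESeq2 and 2 with limma-voom. Lower calls numbered 7 to 13, and higher calls 1 to 2 (2 without vehicle tumor 3 or TDB tumor 1), with 1 library left out. In liver and for the difference between tissues, 0 members were called under every alternative run. Over all genes, liver calls (73) became 145 with no low-count filter, 320 with DESeq2, 323 in the 12-library fit, 37 on log2 of deposited FPKM plus 1 and 14 to 163 in leave-outs (18, 14 and 17 without vehicle liver 1, 2 and 3, 24 and 163 without TDB liver 2 and 3). Tumor calls (4456) became 1695 in the 12-library fit and 2942 to 4860 in leave-outs (2942 without TDB tumor 2). Calls for the difference between tissues (412) became 856 with DESeq2, 1108 and 808 on FPKM plus 1 and plus 0.1, and 241 to 696 in leave-outs (270 and 696 without vehicle liver 1 and TDB liver 3, 264, 261 and 241 without vehicle tumor 2, TDB tumor 1 and TDB tumor 2). Rises were 54.7% of tumor calls, against 44.4% on FPKM plus 0.1, and 73.5% of calls for the difference, against 52.2% on FPKM plus 1 and 61.8% on FPKM plus 0.1. No member with an adjusted p under 0.05 changed sign. Signs of uncalled genes did: Srebf2 in liver (-0.016 on FPKM plus 1, -0.033 on FPKM plus 0.1) and Sc5d in tumor (-0.069 with upper quartiles, -0.00045 unfiltered, -0.082 over 12 libraries, -0.042 and -0.054 on FPKM plus 1 and plus 0.1). Leave-out log2 fold changes crossed 0 in liver for Abca1 -0.29 to 1.36, Cyp51 -0.51 to 0.011, Dhcr7 -0.38 to 0.0069, Fdps -0.52 to 0.027, Ggps1 -0.11 to 0.060, Hmgcs1 -0.45 to 0.020, Hsd17b7 -0.66 to 0.10, Idi1 -0.78 to 0.12, Insig1 -0.12 to 0.15, Lbr -0.012 to 0.24, Lss -0.25 to 0.23, Pmvk -0.67 to 0.0016, Sqle -0.092 to 0.35 and Srebf2 -0.21 to 0.27, and in tumor for Dhcr7 -0.10 to 0.053, Fdft1 -0.064 to 0.034 and Sc5d -0.044 to 0.053. The causes were not tested.

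Replicate numbers are shared between groups, and no label says that they pair the samples. Residuals of same-numbered TDB and vehicle libraries correlated at 0.063, 0.018 and 0.26 in tumor and -0.092, 0.46 and 0.61 in liver. In tumor 4 of 6 libraries, and in liver 3 of 6, correlated best with their own number. Tumor and liver residuals of the same treatment and number correlated at 0.017, 0.015 and 0.096 with TDB. With vehicle they correlated at -0.017, -0.039 and 0.078. Whether same-numbered libraries are linked was not tested. With the number as a block joining TDB and vehicle libraries within a tissue, calls over all genes were 4622 in tumor and 350 in liver. Members were then 11 lower and 2 higher in tumor. For the difference, the block instead joined tumor and liver libraries of the same treatment and number, with 258 calls over all genes. The block within tumor added the Abca1 call (adjusted p = 0.0132) and ended that of Hsd3b7 (0.0875). The block across tissues ended the Rnf139 call for the difference (0.104). Adding near-copy counts to Acat2, Fdps, Idi1, Fdft1 and Ggps1, chosen after seeing the data, changed no call. At low counts (Fdps and Idi1 near 2 CPM in tumor), depth limits what a change of this size can show.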
